A study of Homo sapiens with 9 samples.

Results

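The genes described here encode the subunits of oxidative phosphorylation (OXPHOS), chosen by symbol and not by a cut on any measured value. Earlier results of these data were known when they were chosen. They are 76 nuclear genes of complexes I to V and the 13 protein-coding genes of mitochondrial DNA, 89 of the 60199 symbols in the count table. Complex I had 36 nuclear and 7 mitochondrial members, complex II had 4 nuclear members and none from the mitochondrial genome, complex III had 9 and 1, complex IV had 12 and 3, and complex V had 15 and 2. NDUFA4, named as a complex I gene but found in cytochrome c oxidase, was placed in complex IV. All 89 were among the 15717 genes that passed a filter on low counts.

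Poly-A RNA was sequenced from 3 cultures each of 3 forms of MCF10A, an immortalised human mammary epithelial cell line. MCF10A medium in the study's methods held horse serum, insulin, hydrocortisone, cholera toxin and EGF. CT was the parental line, with no added BMP2 or IL6 and labelled not transformed. BMP2 and IL6 were in the medium of the other 2 lines, both labelled transformed: MC26, which arose from MCF10A without sorting, and M1B26, which arose from a sort for BMPR1B, a receptor of BMP ligands. M1B26 was expanded from clones picked in soft agar, so clonal origin, sorting and transformation cannot be told apart in that line. Against CT, transformation and the presence of BMP2 and IL6 in the medium cannot be told apart in either derived line. Nothing states that the 3 cultures of a line were derived independently. P-values therefore measure the spread between these cultures. Libraries held between 21425118 (CT replicate 2) and 80076597 counts (CT replicate 3). All 8 basal mammary epithelial markers had at least 10 counts in every library, with summed levels of 7127 to 8763 CPM (counts scaled to a library size of 1e+06) in CT, 8236 to 10281 in MC26 and 6813 to 7197 in M1B26. Of these 8, 3 were called higher and 2 lower in MC26 against CT, and 3 and 3 in M1B26. Summed fibroblast markers (7 genes) lay between 37.4 and 37.8 CPM in CT, 17.1 and 56.8 in MC26 and 28.5 and 39.9 in M1B26. Of the 4 tested, LUM and COL1A1 were called higher in M1B26 than in CT. The other 2 had negative log2 fold changes (lowest -1.05) and were not called. CDKN2A and CDKN2B, deleted in MCF10A, were at 0 in all 9 libraries. Of 6 blood cell markers CD3E and HBB were also at 0, and the summed level was 7.03 to 11.1 CPM in CT, 9.74 to 17.9 in MC26 and 34.0 to 47.9 in M1B26, nearly all of it CD14. The 4 endothelial markers summed to 7.53 to 7.77 CPM in CT, 1.02 to 1.39 in MC26 and 2.84 to 4.91 in M1B26. The part of these markers in the results was not tested.

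OXPHOS couples the oxidation of NADH and succinate to ATP synthesis. Complexes I (NADH dehydrogenase) and II (succinate dehydrogenase) pass electrons to ubiquinone, complex III (cytochrome bc1) passes them to cytochrome c, complex IV (cytochrome c oxidase) reduces oxygen, and complex V (ATP synthase) uses the proton gradient that complexes I, III and IV build. The mitochondrial genome is transcribed as long polycistronic RNAs by its own polymerase and supplies core membrane subunits, whereas the far more numerous nuclear subunits are made in the cytosol and imported, so each complex except II is assembled from the products of both genomes.

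In M1B26 nuclear subunits were mostly higher and mitochondrial genes lower. Against CT, 43 of the 76 nuclear subunits rose and 2 fell, where 25.2% of all genes tested were called higher, 23.7% lower and 48.9% in either direction, and the median log2 fold change of the nuclear subunits was 0.27 against 0.00 for all genes. The nuclear result changed with a correction for gene length: with a trend of coding length removed from each library 14 rose and 12 fell (median -0.0053), with exonic length 22 rose and 7 fell, and in this comparison the medians of the subunits differed from those of other genes in the same length bins by -0.02 to 0.08. Of the 13 mitochondrial genes 8 fell and 0 rose, with a median of -0.44, and these 8 calls stood with each length correction. Against MC26, 51 nuclear subunits rose and 0 fell, with 21.2% of all genes called higher, 18.4% lower and 39.5% in either direction, and all 13 mitochondrial genes fell. The medians there were 0.32 and -0.58. In MC26 against CT the pattern was smaller and of another kind: 12 nuclear subunits fell and 0 rose, beside 19.9% of all genes called lower, 18.8% higher and 38.7% in either direction, and 1 mitochondrial gene (MT-CYB) rose. The medians were -0.06 and 0.22. The share of nuclear subunits called lower in MC26 was thus no higher than that over all genes (12 of 76), whereas that called higher in M1B26 was. A gene was called where its adjusted p was under 0.05 in edgeR's quasi-likelihood test over all 15717 genes. MC26 and M1B26 were compared with the same CT libraries.

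**Figure D1:**
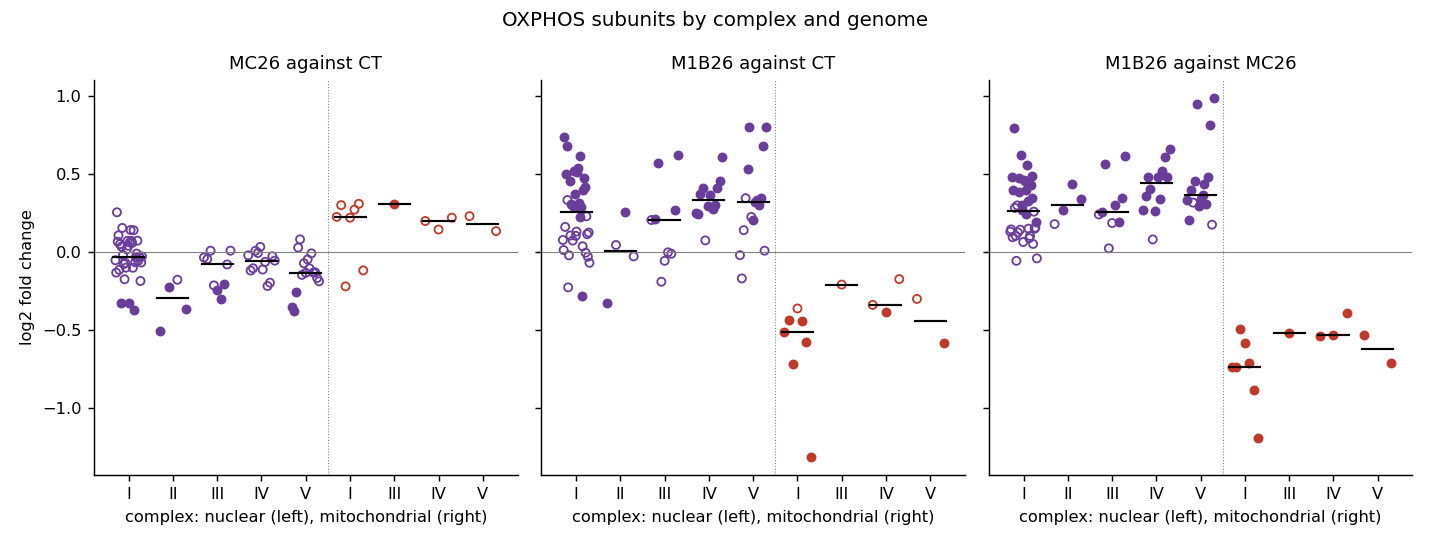
Log2 fold change of each OXPHOS subunit (y axis) by complex (x axis, 5 nuclear sets at the left in purple and 4 mitochondrial sets at the right in red) in the 3 comparisons, with filled points for genes called at an adjusted p under 0.05, open points for the others and a line at each median. In M1B26 most nuclear subunits lie above 0 and all 13 mitochondrial genes below it.

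Levels were also summed over each genome in single libraries. The 76 nuclear subunits summed to 11737, 10740 and 11432 CPM in CT, to 9909, 9814 and 11004 in MC26 and to 12954, 13490 and 12510 in M1B26. All 3 M1B26 libraries were above all 6 others, while MC26 replicate 3 lay within the CT range. The 13 mitochondrial genes summed to 17521, 18315 and 18747 CPM in CT, to 19372, 25981 and 17927 in MC26 and to 15287, 15526 and 12063 in M1B26. Here every M1B26 library was below all others, and MC26 replicate 2 stood far above the rest. Of all counts in CT, MC26 and M1B26, the mitochondrial genes held 1.89% ± 0.08, 2.08% ± 0.43 and 1.39% ± 0.18 (SD, n = 3), and the nuclear subunits 1.18% ± 0.03, 1.01% ± 0.07 and 1.26% ± 0.04.

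The log2 ratio of summed mitochondrial to summed nuclear subunit counts needs no scaling of libraries. It was 0.58, 0.77 and 0.71 in CT, 0.97, 1.40 and 0.70 in MC26, and 0.24, 0.20 and -0.05 in M1B26. The M1B26 values lay below all others, so a subunit mRNA pool with a mean ratio of 1.61 mitochondrial to nuclear counts in CT had one of 1.098 in M1B26, whereas CT and MC26 overlapped. The mean difference was -0.56 for M1B26 against CT, -0.90 for M1B26 against MC26 and 0.34 for MC26 against CT, and the last was 0.15 without MC26 replicate 2. In bulk RNA, fewer mitochondrial genomes and fewer transcripts of each cannot be told apart.

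**Figure D2:**
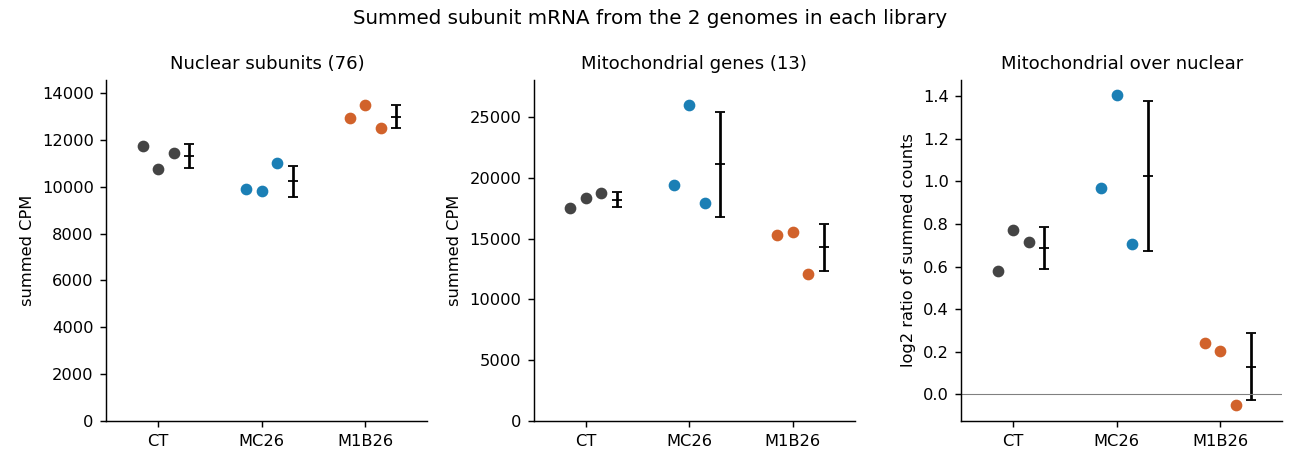
Summed CPM of the 76 nuclear subunits, summed CPM of the 13 mitochondrial genes and the log2 ratio of their counts (y axes) in the 3 libraries of each line (x axis), with the mean and SD of each line at the right of its points. M1B26 is highest in the first panel and lowest in the other two, and MC26 replicate 2 is the high point of the mitochondrial panel.

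Among the mitochondrial genes, the order of levels was nearly the same in the 3 lines. Per kb of coding length, which allows genes to be compared with each other, MT-CO1, the catalytic subunit of complex IV, was highest. It stood at 3740 ± 192 CPM per kb in CT (SD, n = 3), at 4291 ± 876 in MC26 and at 2956 ± 407 in M1B26. MT-CO2 (3364 ± 74.1 in CT) and MT-CO3 (2788 ± 68.3), the other complex IV genes, came next, followed by MT-ATP6, the proton channel subunit of ATP synthase, with 2081 ± 25.3. These 4 were separate from their neighbours in CT, whose library ranges did not overlap. The complex I genes ran from 1559 ± 43.0 for MT-ND4 through 998 ± 34.1 for MT-ND2, 922 ± 25.7 for MT-ND4L and 669 ± 21.2 for MT-ND3 to 587 ± 26.8 for MT-ND1 and 509 ± 25.2 for MT-ND5. MT-ND4L overlapped in CT with MT-CYB (911 ± 34.0) of complex III, and MT-ND4 overlapped with MT-ATP8 (1385 ± 186). MT-ND6, the only coding gene on the other strand (M, positions 14149 to 14673), was far lower at 86.1 ± 24.5. The libraries were made from poly-A RNA, and the strandedness of the counts is not given. How far capture or reads of the opposite strand shaped the MT-ND6 values, here and below, was not tested.

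The mitochondrial genes did not all differ by the same amount. MT-ND6, a membrane subunit of complex I, was at 30.4, 52.6 and 52.7 CPM in CT, 49.0, 46.4 and 29.2 in MC26 and 25.5, 15 and 13.9 in M1B26. The M1B26 libraries were below all others, and the log2 fold change against CT was -1.31 ± 0.28 (SE, adjusted p = 0.0026, edgeR). CT replicate 1 was close to the highest M1B26 library. MT-ND3, another membrane subunit of complex I, was at 223, 233 and 238 CPM in CT, 213, 223 and 160 in MC26 and 149, 152 and 121 in M1B26. It fell in M1B26 against CT by 0.72 ± 0.12 on the log2 scale (adjusted p = 7.0e-04), and with MT-ND6 it was 1 of the 2 mitochondrial genes whose mean in MC26 was not above CT.

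The other complex I genes of the mitochondrial genome form the proton-pumping membrane arm. Against CT, M1B26 had MT-ND5 at -0.57 ± 0.14, MT-ND1 at -0.52 ± 0.13, MT-ND2 at -0.44 ± 0.14 and MT-ND4L at -0.44 ± 0.13, all of which passed the test, and MT-ND4 at -0.36 ± 0.15, which did not (adjusted p = 0.060). In complex V, MT-ATP8 fell by 0.58 ± 0.14 on the log2 scale and MT-ATP6 was at -0.30 ± 0.15 (adjusted p = 0.11). In complex IV, MT-CO2 passed narrowly at -0.39 ± 0.15 (adjusted p = 0.0494), while MT-CO1 was at -0.34 ± 0.13 and MT-CO3 at -0.17 ± 0.12. MT-CYB, the cytochrome b of complex III, was at -0.21 ± 0.11. For each of the 13, all M1B26 libraries were below all CT libraries, which held for 29% of all genes tested. Of the 7 complex I genes 6 were called lower, and of the 6 genes of other complexes 2, beside 23.7% of all genes. With an exonic-length correction all 13 were called lower, so this split between complexes depended on the fit. The call of MT-CO2 was lost without any 1 of 5 of the 6 libraries. Without M1B26 replicate 3, which had the lowest mitochondrial level of all libraries, 5 of the 13 were called lower.

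Against MC26 all 13 fell, from -0.39 ± 0.12 for MT-CO3 to -1.20 ± 0.28 for MT-ND6, with adjusted p between 7.0e-04 (MT-ND5) and 0.021 (MT-CO3). MC26 replicate 2 bore on the size. MT-CO1, for example, was at 6059, 8158 and 5635 CPM in MC26 beside 5434, 5867 and 6000 in CT and 4874, 4966 and 3836 in M1B26. Without that library 10 of the 13 were still called lower in M1B26, with a median of -0.40, and the median of MC26 against CT dropped from 0.22 to 0.03. The single rise in MC26, MT-CYB at 0.31 ± 0.11 (adjusted p = 0.0476), was lost without any of 5 single libraries, whereas 4 mitochondrial genes were called higher without MC26 replicate 3.

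**Figure D3:**
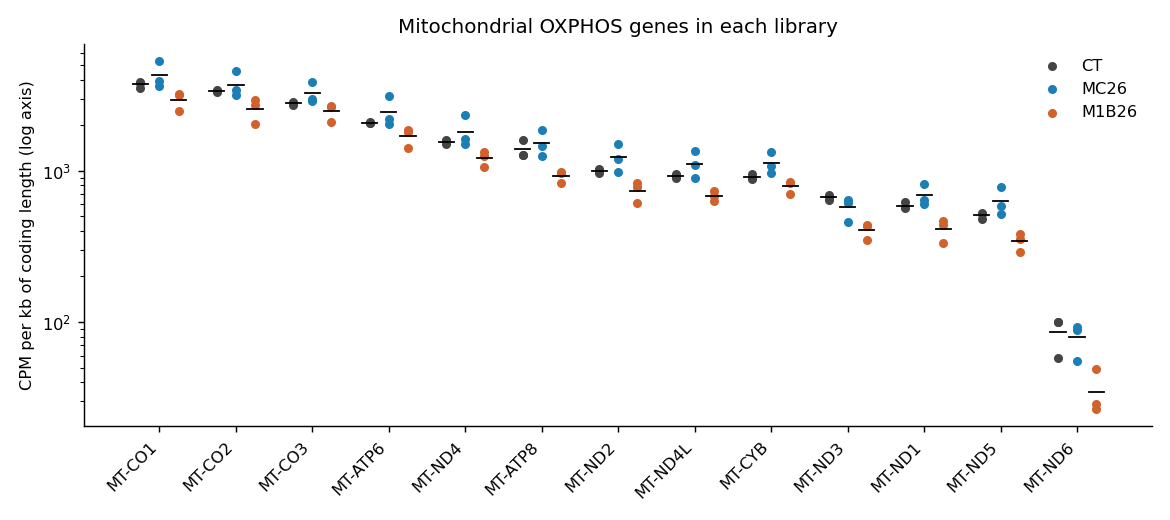
Level of each mitochondrial OXPHOS gene in CPM per kb of coding length (y axis, log scale) in every library, coloured by line, with lines at the group means and genes ordered by their level in CT (x axis). The M1B26 points lie lowest for every gene, the high MC26 point is replicate 2 for 12 of the 13 genes, and MT-ND6 stands apart from the other 12.

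The mitochondrial frames overlap, which limits how far neighbouring genes can be read apart. MT-ATP8 and MT-ATP6 share 46 bases, shown here from GRCh38 because reads within them belong to both genes (M, positions 8527 to 8572, forward strand). The first codon of MT-ATP6 and the last of MT-ATP8 are in capitals.
MT-ATP8 and MT-ATP6 overlap: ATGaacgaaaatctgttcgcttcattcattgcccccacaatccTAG
MT-ND4L and MT-ND4 share 7 bases, and MT-ATP6 and MT-CO3 share 1. Nuclear copies of mitochondrial DNA also carry matching sequence. Their counts were 16.6% of those of MT-ATP6, 2.46% of those of MT-ND2 and 1.0% of those of MT-ND4, and adding them left the difference between M1B26 and CT in the log2 ratio at -0.56.

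Complex I takes up NADH through its peripheral arm and pumps protons through its membrane arm. Of its 36 nuclear subunits 18 rose in M1B26 against CT and 1 fell, and 18 rose and 0 fell against MC26. The arms differed in their counts: of the 21 nuclear subunits of the membrane arm 14 rose against CT (median 0.31), while of the 10 in the NADH-oxidising N module 3 rose and 1 fell (median 0.06), and of the 5 in the ubiquinone-reducing Q module 1 rose (median 0.11). This difference between modules was not tested, and counts by complex stand beside the 25.2% of all genes called higher in M1B26 against CT and the 21.2% called higher against MC26. NDUFA11, a membrane-arm subunit (19, positions 5891276 to 5904006), was at 85.7, 63.4 and 93.2 CPM in CT, 99.3, 85.8 and 105 in MC26 and 143, 145 and 117 in M1B26. It had the largest difference of the complex against CT, 0.74 ± 0.14 (SE, adjusted p = 0.0012, edgeR), and M1B26 was above all other libraries. NDUFA2, of the N module (5, positions 140638740 to 140647771), was at 59.9, 49.9 and 58.2 CPM in CT, 52.2, 45.9 and 57.5 in MC26 and 92.4, 94.5 and 82.7 in M1B26. It was the highest of the complex against MC26, at 0.79 ± 0.10 (adjusted p = 1.5e-04), with no overlap.

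Of the 7 conserved nuclear core subunits of complex I, which hold its flavin, iron-sulphur clusters and quinone site, 1 rose and 1 fell in M1B26 against CT. NDUFS1, the large iron-sulphur subunit with the longest coding sequence of all members (2, positions 206114817 to 206159509), was at 198, 202 and 183 CPM in CT, 140, 153 and 156 in MC26 and 160, 152 and 166 in M1B26. It fell in both derived lines, by 0.37 ± 0.07 (adjusted p = 0.0017) and by 0.29 ± 0.07 (adjusted p = 0.0058) on the log2 scale, with no overlap with CT. NDUFS3, which helps to form the quinone-binding arm, rose in M1B26 by 0.40 ± 0.07 against CT and 0.43 ± 0.07 against MC26. NDUFV2, an iron-sulphur subunit, was at 0.12 ± 0.07 against CT and passed only against MC26 (0.19 ± 0.07, adjusted p = 0.0497). The flavin subunit NDUFV1 (-0.03 ± 0.09 in M1B26 against CT), the quinone-site subunit NDUFS7 (0.23 ± 0.11) and the iron-sulphur subunit NDUFS8 (0.11 ± 0.11) were called in none of the 3 comparisons. At the low end NDUFA6 was at -0.06 ± 0.08 in M1B26 against MC26 (adjusted p = 0.61).

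Complex II also works in the citric acid cycle, and 3 of its 4 subunits fell in MC26, beside 19.9% of all genes called lower. SDHA, its flavoprotein (5, positions 218303 to 257082), was at 216, 195 and 217 CPM in CT, 133, 143 and 167 in MC26 and 165, 170 and 166 in M1B26. It fell in MC26 by 0.50 ± 0.08 (adjusted p = 8.8e-04), the largest fall of any nuclear subunit, and in M1B26 by 0.33 ± 0.08 (adjusted p = 0.0079), and neither line overlapped CT. The iron-sulphur subunit SDHB (-0.23 ± 0.06) and the membrane anchor SDHD (-0.37 ± 0.08) also fell in MC26, whereas in M1B26 they were at 0.04 ± 0.06 and -0.03 ± 0.08. The other anchor, SDHC, was at 175, 178 and 162 CPM in CT, 150, 145 and 159 in MC26 and 207, 212 and 195 in M1B26. It was at -0.18 ± 0.07 in MC26 (adjusted p = 0.057) and rose in M1B26, by 0.26 ± 0.07 against CT and 0.43 ± 0.07 against MC26. The call of SDHC in M1B26 against CT was lost with total counts and with each length correction, where its value was as low as 0.026 (coding length), whereas that of SDHA stood under all 20 alternatives. The log2 ratio of SDHA to SDHC was not tested.

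Of the 9 nuclear subunits of complex III, 4 rose in M1B26 against CT, 6 rose against MC26, and 3 fell in MC26. UQCRQ, a small subunit near the cytochrome b core, was at 179, 155 and 175 CPM in CT, 171, 151 and 190 in MC26 and 265, 291 and 229 in M1B26, with M1B26 above all others. It had the largest difference of the complex, 0.62 ± 0.10 against either line (adjusted p = 6.2e-04 and 0.0011). UQCR11, UQCRH and UQCR10, also small, were the other 3. The core subunits UQCRC1 (-0.24 ± 0.09) and UQCRC2 (-0.30 ± 0.06) and the Rieske iron-sulphur protein UQCRFS1 (-0.20 ± 0.07) were those that fell in MC26, and in M1B26 against CT they were at -0.06 ± 0.09, -0.00 ± 0.06 and -0.01 ± 0.07. Cytochrome c1, encoded by CYC1, was at 0.20 ± 0.11 in M1B26 against CT, and UQCRB was lowest at -0.19 ± 0.09 (adjusted p = 0.097). Neither was called in any comparison.

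In complex IV, of 12 nuclear subunits 11 rose in M1B26 against CT and the same 11 rose against MC26, while 0 were called in either direction in MC26 against CT. NDUFA4 was at 122, 111 and 112 CPM in CT, 111, 103 and 119 in MC26 and 176, 189 and 161 in M1B26. At 0.61 ± 0.08 against CT (adjusted p = 1.3e-04) it was the highest of the complex. COX4I1, the regulatory subunit that binds ATP, rose by 0.25 ± 0.07, COX5A by 0.24 ± 0.08, COX5B by 0.37 ± 0.13 and the supercomplex factor COX7A2L by 0.28 ± 0.06. Of 20 alternatives, the call against CT was lost in 10 for COX5B, 10 for COX7B, 5 for COX5A and 0 for NDUFA4. In addition, the value changed sign in 1 for COX7B and in 3 for COX5A. COX6B1 alone was not called (0.07 ± 0.08, adjusted p = 0.48). The lowest and highest in MC26, COX7B at -0.22 ± 0.10 and COX6C at 0.03 ± 0.08, did not pass.

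In complex V, 9 of the 15 nuclear subunits rose in M1B26 against CT and 13 against MC26. In MC26 3 of the 15 fell, a share close to the 19.9% of all genes called lower. ATP5PO, the peripheral stalk subunit that confers oligomycin sensitivity (21, positions 33903453 to 33915814), was at 176, 172 and 157 CPM in CT, 142, 140 and 161 in MC26 and 291, 318 and 272 in M1B26. M1B26 was far above all other libraries, at 0.80 ± 0.08 against CT (adjusted p = 2.2e-05) and 0.99 ± 0.08 against MC26 (adjusted p = 1.2e-05). The other genes tested on chromosome 21 had a median of -0.01 in M1B26 against CT (n = 131), and ATP5PF, a peripheral stalk gene on the same chromosome, was at 0.01 ± 0.07. ATP5MC1, 1 of 3 genes for the same c-ring protein, was at 136, 117 and 131 CPM in CT, 111, 109 and 127 in MC26 and 226, 239 and 204 in M1B26. It rose by 0.80 ± 0.09 against CT, where its paralogs ATP5MC3 and ATP5MC2 were at 0.21 ± 0.08 and 0.22 ± 0.09. ATP5MC3 passed narrowly (adjusted p = 0.046, edgeR) and ATP5MC2 did not (0.056). The call of ATP5MC3 was lost without any 1 of the 6 libraries compared. ATP5PD, of the peripheral stalk, was at 117, 115 and 110 CPM in CT, 103, 100 and 110 in MC26 and 184, 198 and 166 in M1B26, a rise of 0.68 ± 0.07.

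ATP5MC1 and ATP5PD (17, positions 48892765 to 48895871 and 75038863 to 75046985) are the only members on chromosome 17. The other 841 genes tested there had a median log2 fold change of 0.48 in M1B26 against either line and 0.00 in MC26 against CT, and 64.3% of them were called higher in M1B26 against CT. Without ATP5MC1 and ATP5PD, 41 of 74 nuclear subunits rose in M1B26 against CT and the median was 0.26. The part of chromosome 17 in the values of these genes was not tested.

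ATP is made in the catalytic head of complex V. ATP5F1B, the catalytic beta subunit, had the highest CPM of all nuclear members, with 1343, 1246 and 1317 in CT, 962, 953 and 1094 in MC26 and 1132, 1127 and 1214 in M1B26. MC26 was below both other lines, by 0.38 ± 0.07 on the log2 scale against CT (adjusted p = 0.0019), and M1B26 was at -0.17 ± 0.07 against CT, with no overlap but an adjusted p of 0.069. The alpha subunit ATP5F1A and the gamma subunit ATP5F1C fell in MC26 by 0.36 ± 0.07 and 0.26 ± 0.07 and were at -0.02 ± 0.07 and 0.14 ± 0.07 in M1B26 against CT. All 3 rose in M1B26 against MC26. ATP5F1E, the small epsilon subunit, rose in M1B26 by 0.53 ± 0.08 against CT and was highest of the complex in MC26 (0.08 ± 0.08, not called).

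**Figure D4:**
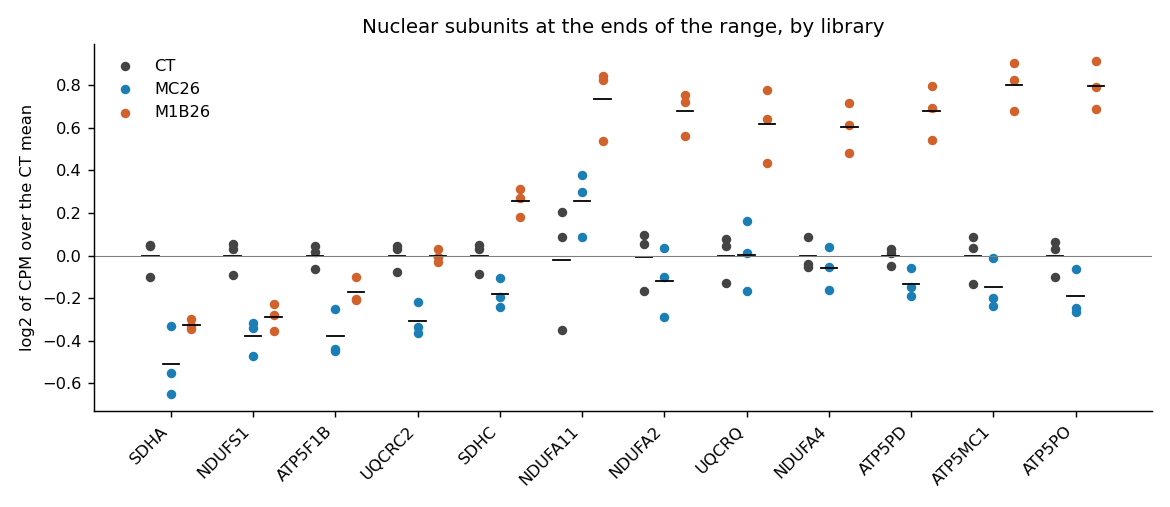
Log2 of CPM over the CT mean (y axis) in every library for 12 nuclear subunits from both ends of the range (x axis), coloured by line, with lines at the group means. SDHA and NDUFS1 lie below CT in both derived lines, ATP5F1B and UQCRC2 lie lowest in MC26, and ATP5PO, ATP5MC1 and ATP5PD lie above CT in M1B26 and not in MC26.

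Across the nuclear subunits, 41 were called higher in M1B26 against both CT and MC26 and not called between MC26 and CT. A further 8 fell in MC26 against CT, rose in M1B26 against MC26 and were not called between M1B26 and CT: ATP5F1A, ATP5F1B, ATP5F1C, NDUFB5, SDHB, SDHD, UQCRC2 and UQCRFS1. SDHA and NDUFS1 fell in both lines, and 19 were called in no comparison. These comparisons share libraries. M1B26 had the highest group mean for 62 of the 76 and MC26 the lowest for 54. The shares of all genes tested with these patterns or orders were not counted, so these numbers describe the members only.

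Coding length ran alongside these differences. Nuclear subunits are short, with a median of 423 bases and a range of 153 to 2181, against a median of 1413 for the genes tested. In M1B26 against CT, 17 of the 20 subunits under 300 bases rose (median 0.33), 17 of the 26 from 300 to 500 (0.29), 8 of the 19 from 500 to 1000 (0.23) and 1 of the 11 above 1000, of which 2 fell (-0.03). Genes that are not OXPHOS subunits had medians of 0.35, 0.26, 0.15 and -0.02 in the same bins, with 57.7%, 49.4%, 39.0% and 22.9% called higher. In this comparison the medians of the subunits thus differed from those of other genes of like length by -0.02, 0.03, 0.08 and -0.01. Against MC26 the subunits were at 0.45, 0.34, 0.27 and 0.18 where the other genes were at 0.29, 0.22, 0.11 and -0.03, so they were higher in every bin. In MC26 against CT they were at -0.05, -0.03, -0.04 and -0.24, where the others were at 0.11, 0.06, 0.04 and 0.01, so they were lower in every bin. Of the 11 subunits above 1000 bases 6 fell, beside 21.9% of the other genes in that bin called lower. In the shorter bins 0 of 20, 2 of 26 and 4 of 19 fell, beside 12.8%, 16.7% and 18.8%.

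**Figure D5:**
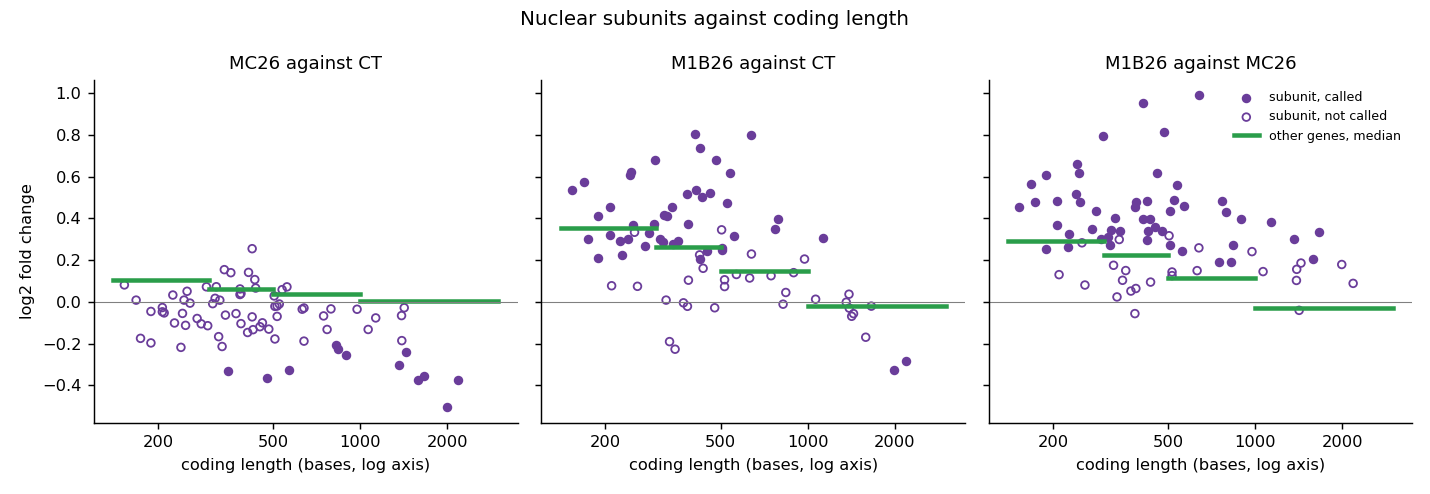
Log2 fold change of the 76 nuclear subunits (y axis) against coding length in bases (x axis, log scale) in the 3 comparisons, with filled points for called genes and green bars for the median of all other tested genes in each of 4 bins. In M1B26 against CT the subunits follow the green bars downwards with length. In MC26 against CT the subunit medians were below the green bars in every bin, by most in the last.

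The tilt with length was seen in single libraries as well. Relative to its mean over the 9 libraries, the median of 808 other genes with a coding length under 500 bases minus that of 3170 genes of 2000 bases or more was -0.17, -0.25 and -0.18 on the log2 scale in CT, -0.07, -0.14 and -0.06 in MC26 and 0.28, 0.38 and 0.20 in M1B26. The lines did not overlap. Within M1B26 the nuclear subunits were likewise highest in replicate 2 and lowest in replicate 3. When a smooth trend of coding length was removed from each library before testing, an alternative chosen after seeing the data, 14 nuclear subunits were called higher in M1B26 against CT and 12 lower, with a median of -0.01, and 22 were called higher and 3 lower against MC26. With exonic length, which was planned, the counts were 22 and 7 against CT and 39 and 2 against MC26. Whether the tilt lies in the cells or in the libraries was not tested.

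The calls that stood without a length correction and with each of 3 (exonic length, coding length, and exonic length with GC content) numbered 13 for nuclear subunits higher in M1B26 against CT. They were ATP5MC1, ATP5PB, ATP5PD and ATP5PO of complex V, NDUFA2, NDUFA9, NDUFA11, NDUFB6, NDUFB9, NDUFB11 and NDUFS3 of complex I, UQCRQ of complex III and NDUFA4 of complex IV. ATP5PO was at 0.61 to 0.68 over the 3 and ATP5MC1 at 0.54 to 0.63. SDHA was the only nuclear subunit called lower in all of them. By complex, the coding-length fit called 1 of 12 nuclear subunits higher and 1 lower in complex IV, 8 and 6 of 36 in complex I, 0 and 2 of 4 in complex II, 1 and 2 of 9 in complex III and 4 and 1 of 15 in complex V, so the near-uniform rise of complex IV was not called under that correction. In MC26 against CT 11 of the 12 falls, all but NDUFA5, stood in each fit. The mitochondrial falls in M1B26 stood too, with 8 genes called in every fit against CT and all 13 against MC26, and with an exonic-length correction all 13 were called lower against CT (median -0.70).

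Levels within a complex also differed between genes. Per kb of coding length, counting reads of untranslated exons too, the nuclear subunits of complex IV ran in CT from 231 CPM per kb (COX7A2L) to 919 (COX7C), those of complex V from 211 (ATP5F1D) to 848 (ATP5MC3), those of complex III from 175 (UQCRFS1) to 704 (UQCRH), those of complex II from 105 (SDHA) to 338 (SDHC), and those of complex I from 39.0 (NDUFV3) to 472 (NDUFS5). Complex I had the lowest median, 153 in CT, 148 in MC26 and 168 in M1B26, and complex IV the highest, 501, 480 and 649. The range within complex II, SDHC over SDHA, was 3.21-fold in CT, 4.03-fold in MC26 and 4.81-fold in M1B26. The mitochondrial complex IV genes lay at 2788 to 3740 in CT, above every nuclear subunit.

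Genes that serve OXPHOS without being subunits were read beside them, with the percentages of all genes called as given above. Of 24 genes for mitochondrial transcription and RNA handling 9 rose and 1 fell in M1B26 against CT (median 0.14), 9 rose and 0 fell against MC26, and 2 rose and 2 fell in MC26. TEFM, the mitochondrial transcription elongation factor, was at 6.51, 7.29 and 6.45 CPM in CT, 7.61, 6.22 and 6.54 in MC26 and 13.4, 13.1 and 14.5 in M1B26, a rise of 1.03 ± 0.10, and lies on chromosome 17. TFB2M, needed to start transcription at mitochondrial promoters, rose by 0.50 ± 0.08 against CT. TFAM, which packages mitochondrial DNA and activates its promoters, was at 0.10 ± 0.09 against CT and rose by 0.29 ± 0.09 against MC26. The polymerase POLRMT was at 0.18 ± 0.12 against CT. LRPPRC, which stabilises mitochondrial mRNAs, was at 313, 347 and 293 CPM in CT, 219, 249 and 268 in MC26 and 288, 274 and 293 in M1B26. It fell in MC26 by 0.37 ± 0.09 (adjusted p = 0.0064) and was at -0.15 ± 0.09 in M1B26.

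Among 11 tested regulators of mitochondrial biogenesis, 1 rose and 4 fell in M1B26 against CT, and 2 rose and 1 fell in MC26. The coactivator gene PPARGC1A was near the limit of detection, at 0.46, 0.66 and 0.50 CPM in CT, 0.07, 0.03 and 0.31 in MC26 and 0.07, 0.07 and 0.13 in M1B26. Its call against CT passed in M1B26 (adjusted p = 0.0038, edgeR) and in MC26 (0.017), and the latter was lost without either MC26 replicate 1 or 2. Its relative PPARGC1B, expressed far more highly, was at 39.9, 40.5 and 39.0 CPM in CT, 29.5, 33.3 and 39.3 in MC26 and 31.3, 23.7 and 26.8 in M1B26, a fall of 0.54 ± 0.12 on the log2 scale in M1B26. PPRC1, the third of that family, rose in MC26 by 0.47 ± 0.10 and was at 0.21 ± 0.10 in M1B26. GABPA, the DNA-binding subunit of a factor that acts on many OXPHOS promoters, fell in M1B26 by 0.39 ± 0.10, and its partner GABPB1 rose in both lines, by 0.60 ± 0.08 in MC26 and 0.27 ± 0.08 in M1B26. NRF1 (0.02 ± 0.10), ESRRA (0.06 ± 0.10) and MYC (0.20 ± 0.13) were not called in M1B26 against CT.

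Of the assembly factors of complex IV, 15 of 22 rose and 0 fell in M1B26 against CT (median 0.42). The largest were COA3 (1.099 ± 0.06), TACO1 (1.01 ± 0.08), which activates translation of MT-CO1, and COX14 (0.88 ± 0.12), of which COA3 and TACO1 lie on chromosome 17. All 5 factors on that chromosome rose (COX10, COX11 and SCO1 are the others), and 10 of the 17 elsewhere did (median 0.36). For complex I 6 of 17 rose and 1 fell, led by NDUFAF8 at 1.36 ± 0.12, also on chromosome 17. For complexes II and III 5 of 10 rose and 2 fell, led by SDHAF3 at 0.73 ± 0.09, and for complex V 1 of 4 rose, ATPAF2, which lies on chromosome 17. In MC26 FMC1, a complex V factor, fell by 0.72 ± 0.15. In the citric acid cycle 1 of 13 genes rose and 5 fell in M1B26 against CT, and 1 rose and 5 fell in MC26, though not all of these were the same genes: SUCLG1 rose in M1B26 and IDH3G in MC26. Electron carriers and the enzymes that feed them had 4 of 17 higher and 5 lower in M1B26 against CT, and 2 higher and 6 lower in MC26. For mitochondrial DNA replication 3 of 11 rose (POLG2, DGUOK and RNASEH1) and 1 fell (TK2) in M1B26, and 3 rose (PRIMPOL, DGUOK and RNASEH1) and 1 fell (RRM2B) in MC26. POLG2 lies on chromosome 17. For carriers and porins 1 of 7 rose in M1B26 and 2 fell in MC26. Of 5 tested subunits and isoforms outside the symbols chosen here, 4 rose in M1B26 against CT and 5 against MC26, while the tissue-restricted isoforms COX4I2, COX6A2, COX7A1 and COX7B2 had 0 counts in all libraries.

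Nuclear OXPHOS promoters are known for sites of NRF1, of ETS factors such as GABP and of YY1. Their letters were searched on both strands in RefSeq windows (GRCh38.p14) of 250 bases before to 50 after each gene start, found for 62 of the 76 nuclear subunits. The NRF1 letters GCGCANGC were in 25 of 62 windows (40.3%) and in 12.5% of all 27305 windows (21% of those of genes tested here), the ETS letters CCGGAAG in 19 (30.6%, against 10.7% and 18.8%) and the YY1 letters AAGATGGC in 11 (17.7%, against 3.03% and 5.27%). At least 1 of the 3 was in 39 windows. The E-box CACGTG was in 7 (11.3%, against 7.43% and 10.1%). NRF1 letters were in 8 of the 35 windows of subunits that rose in M1B26 against CT and in 17 of the other 27, and ETS letters in 13 and 6. A match of letters shows no binding, and this split was not tested.

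Stretches are shown for the 2 subunits that fell in M1B26 against CT and for 3 that rose, from the bases before the start that hold such letters, 5′ to 3′ on the strand of the gene, with the matches in capitals. SDHA carries the NRF1 letters 4 times (chr5:218139-218319, forward). UQCRQ (chr5:132866573-132866609, forward) carries the ETS letters once. NDUFS1 (chr2:206159580-206159616, reverse) carries the ETS letters once on the strand opposite to its own, and ATP5PO (chr21:33915805-33915841, reverse) and NDUFA11 (chr19:5903864-5903901, reverse) carry the NRF1 letters once, also on the opposite strand.
SDHA: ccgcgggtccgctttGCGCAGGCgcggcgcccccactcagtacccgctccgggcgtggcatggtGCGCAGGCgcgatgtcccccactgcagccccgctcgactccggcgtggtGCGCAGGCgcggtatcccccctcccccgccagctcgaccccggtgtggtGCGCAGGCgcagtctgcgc
NDUFS1: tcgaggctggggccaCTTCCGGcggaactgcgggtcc
UQCRQ: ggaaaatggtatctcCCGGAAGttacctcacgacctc
ATP5PO: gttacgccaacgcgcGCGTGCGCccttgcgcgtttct
NDUFA11: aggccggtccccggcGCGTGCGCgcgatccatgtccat
The NRF1 letters allow any base at N, and the matches shown differ there between SDHA and the 2 genes that rose. These stretches were picked for display, and whether the letters go with the direction of a call was not tested.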

How the data were processed

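Poly-A libraries of 9 MCF10A cultures were sequenced in paired-end mode. The deposited table holds counts, not normalized, of each library by gene symbol. The authors' aligner was STAR 2.7.3a, the genome GRCh38, and the study's methods state quantification by Salmon 1.1.0 on protein-coding genes. The deposited table holds whole numbers and also pseudogenes, so which program made it is unclear, and its strandedness and handling of reads with several alignments are not given in the sources used here.

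Groups came from the sample titles. Tests were run with edgeR 4.0.16 under R 4.3.3 (filterByExpr, minimum count 10; TMM; glmQLFit and glmQLFTest, 2-sided, 3 groups, all 9 libraries, Benjamini-Hochberg over 15717 genes), tested first on simulated data. SE is the absolute log2 fold change over the square root of F. CPM used library sizes scaled by TMM. Lengths and positions came from GENCODE 44, in which 36923 symbols (98.8% of counts) and all 89 members matched. Coding length was known for 81.0% of genes tested. Members and gene lists were chosen with earlier results of these data known. Named genes were all mitochondrial ones, the extremes of each complex, core subunits, fixed regulators, chromosome 17 members and members decided by 1 library. Log2 fold changes were given for at most 3 genes per other list, and in some lists more genes were named without one. Single values of some genes are not reported here. Promoter windows came from RefSeq. Alternatives included DESeq2 1.42.0, other scalings and filters, length offsets, a replicate block and leaving out libraries.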

Additional observations from a re-analysis of the deposited data

Results flagged for a closer look

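The direct test of M1B26 against MC26 asks whether the effects of the 2 derived lines, each taken against the same CT libraries, differ. Of the 60 named genes tested, 41 differed, 37 of the 48 members and 4 of the 12 other genes, where 39.5% of all genes tested were called. The named members include the extremes of each complex, which raises their count. Over all 89 members 51 were higher and 13 lower. The log2 fold changes of M1B26 against MC26 were as follows.

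The mitochondrial genes were lower in M1B26. In complex I the values were -0.74 for MT-ND1, -0.74 for MT-ND2, -0.50 for MT-ND3, -0.58 for MT-ND4, -0.71 for MT-ND4L, -0.88 for MT-ND5 and -1.20 for MT-ND6. MT-CYB of complex III was at -0.52, and in complex IV MT-CO1 was at -0.54, MT-CO2 at -0.53 and MT-CO3 at -0.39. In complex V MT-ATP6 was at -0.53 and MT-ATP8 at -0.71. The calls of MT-ATP6, MT-CO2 and MT-CO3 were each lost without MC26 replicate 2 or M1B26 replicate 3.

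The nuclear subunits were higher in M1B26. In complex I NDUFA2 was at 0.79, NDUFA11 at 0.48, NDUFS3 at 0.43 and NDUFV2 at 0.19, and in complex II SDHC was at 0.43, SDHD at 0.34 and SDHB at 0.27. In complex III UQCRQ was at 0.62, UQCRC2 at 0.30 and UQCRFS1 at 0.19. In complex IV NDUFA4 was at 0.66, COX7B at 0.52, COX5B at 0.48, COX5A at 0.36, COX7A2L at 0.34, COX4I1 at 0.27 and COX6C at 0.26. In complex V ATP5PO was at 0.99, ATP5MC1 at 0.95, ATP5PD at 0.81, ATP5F1E at 0.45, ATP5F1C at 0.40, ATP5F1A at 0.33 and ATP5F1B at 0.21. NDUFV2 lost its call under 14 of 20 alternatives, ATP5F1B and UQCRFS1 under 12 each.

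Of the other genes TEFM was at 1.01, TFB2M at 0.34 and TFAM at 0.29, while PPARGC1B was at -0.32 and lost its call under 11 of 20 alternatives.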

How the results depend on the processing

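The medians of the 2 genomes kept their directions in M1B26 under every alternative but one. With a coding-length offset the median of the nuclear subunits in M1B26 against CT was -0.0053, with 14 higher and 12 lower. With an exonic-length offset it was 0.13, with 22 higher and 7 lower, with that offset and a replicate block 0.13, with 24 and 9, and with exonic length and GC 0.13, with 28 and 10. With total counts the median was 0.18, with 5 lower. The mitochondrial median there was -0.70, -0.70 and -0.66 with the 3 exonic offsets, each with 13 lower, and 5 were lower at an adjusted p under 0.01. With the mean of log2 counts per gene, the log2 ratio of mitochondrial to nuclear counts differed by -0.75 between M1B26 and CT.

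In M1B26 against MC26 the nuclear medians were 0.23 with exonic length, 0.23 with the block added, 0.23 with GC added and 0.14 with coding length, which called 22 higher. These fits called 2, 2, 3 and 3 lower. In MC26 against CT the nuclear subunits called lower were 24 with total counts, 20 with the coding-length offset, 21 with exonic length and GC and 7 at an adjusted p under 0.01. Without a filter 1 was called higher, and 4 mitochondrial genes were. None was called higher (0) with total counts, a mean of at least 50 counts, the 4 length offsets, the stricter threshold or only the 6 libraries.

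Leaving out 1 library at a time gave 7 to 19 nuclear subunits lower and 0 to 4 mitochondrial genes higher in MC26 against CT, and 5 to 7 mitochondrial genes lower in M1B26 against CT. Nuclear subunits higher in M1B26 numbered 31 to 44 against CT and 36 to 51 against MC26, each fewest without M1B26 replicate 2. The fewest nuclear falls came without MC26 replicate 1 and the most without MC26 replicate 3.

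Of 3596 values of named genes, 186 lost and 154 gained a call and 17 changed sign with a call in either fit. The last were all under length offsets. For M1B26 against CT COX6B1 was at -0.18, -0.17, -0.26 and -0.19 and ATP5PF at -0.21, -0.21, -0.29 and -0.18 with exonic length, exonic length with the block, coding length and exonic length with GC, COX5A was at -0.013, -0.014 and -0.0043 with the first 3, and COX7B (-0.054), COX6C (-0.072) and COX7A2L (-0.013) changed with coding length. Against MC26 COX6C was at -0.047 and COX6B1 at -0.20 with coding length, and COX6B1 at -0.12 with exonic length and GC.

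Deviations of same-numbered libraries from their group means correlated at -0.16 to 0.30, and those of other pairs at -0.27 to 0.27. These values do not settle whether the numbers pair cultures. A replicate block called 43 nuclear subunits higher and 10 mitochondrial genes lower in M1B26 against CT. Depth was no limit for the members, whose lowest count was 570, except that CT replicate 2 was the shallowest and had low counts of GC-rich genes (-0.47 on the log2 scale relative to GC-poor ones).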
